A study of Mus musculus with 23 samples.

Results

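Immediate early genes are switched on within minutes of a stimulus without new protein synthesis, and 10 of them were followed here in sorted retinal microglia of the mouse: Fos, Fosb, Jun, Junb, Jund, Egr1, Atf3, Ier2, Dusp1 and Zfp36. They were chosen by symbol from the 35825 genes of a table of normalized read counts in 23 libraries, and all 10 were found. All 10 also passed the filter on low values, which asked for 3 or more libraries with a normalized count of 10 or above and left 17102 genes for testing.

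These genes are transcribed after kinases of the MAP kinase family and calcium signals act on serum response factor, its ETS partners and CREB, which already sit on the promoters. Fos, FosB, Jun, JunB and JunD form the dimeric transcription factor AP-1, Egr1 is a zinc finger transcription factor and Atf3 is a stress-induced relative of AP-1. Dusp1 dephosphorylates MAP kinases and Zfp36 (tristetraprolin) destroys AU-rich messenger RNAs, so that both close the response again. In microglia the same genes are known to answer injury as well as enzymatic dissociation at body temperature, the step by which cells are freed for sorting.

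The cells were GFP-positive cells of CX3CR1-GFP mice, in which GFP marks the Cx3cr1 locus and so also labels macrophages and monocytes. Mice labelled Cx3Cr1-GFP are called WT (with respect to Spp1), and mice labelled Spp1KO/Cx3Cr1-GFP, which also carry a global deletion of Spp1, are called Spp1 KO. Each genotype was sampled naive (treatment none), after 4 weeks of raised intraocular pressure (IOP) caused by microbeads in the anterior chamber, and at day 7 following crush of the optic nerve (ONC). Every group had 4 libraries except WT after ONC, which had 3. The age of the mice is not given in the sources used here. Retinas of several mice were pooled before papain digestion and sorting, so n counts libraries and not mice. The p-values therefore measure the spread between libraries, part of which may be technical.

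The depth was 22180480 to 30296094 reads per library. The labelled cell type was present in all libraries, since none of 15 microglia markers was at 0 and their summed level was 1.46% to 4.34% of the normalized counts, but 12 rod photoreceptor genes, which microglia do not transcribe, made up 0.511% to 3.62%. Naive Spp1 KO replicate 3 stood apart from its group, with the microglia list at 4.28% against 1.46% to 2.01% in the other 3 libraries and the rod list at 1.15% against 3.08% to 3.62%. The deletion was not visible in every library: 6 libraries labelled Spp1KO held Spp1 at normalized counts of 350.2 to 6811 (naive replicate 1, IOP replicates 2 and 4, ONC replicates 1, 2 and 4), against 6.78 to 81.6 in the other 6 and 334 to 22910 in WT. Cx3cr1 was at 952 to 1233 in the Spp1 KO libraries after IOP elevation and at 9417 to 67880 in the other 19 libraries. The Y-linked gene Ddx3y was at 0 to 3.05 in the Spp1 KO libraries after IOP elevation, at 1369 to 1717 in those after ONC, at 633 to 2274 in WT after IOP elevation, and at both low and high values within each of the other 3 groups. It was looked at after the values were seen, and its part in the results was not tested. Between genotypes after IOP elevation, low Ddx3y and low Cx3cr1 go fully with the Spp1 KO label and cannot be told apart from it. Within Spp1 KO, low Cx3cr1 also goes fully with IOP elevation, since the naive libraries held 9417 to 26280, and cannot be told apart from it. Ddx3y was at 28.1 in naive Spp1 KO replicate 3 and at 1302 to 1713 in the other naive Spp1 KO libraries. The part of both genes in the calls of Spp1 KO after IOP elevation was not tested. Genotype below means the label.

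Promoter sequence is shown for the members that moved together or apart in these libraries, Jun and Dusp1, Junb and Zfp36, and for Fos. The last 150 bases before the start in RefSeq, which lies elsewhere than the GENCODE gene start for Junb, Dusp1 and Zfp36, are given on GRCm38.p6, 5′ to 3′ on the gene's own strand, and capitals mark matches to the cAMP response element (CRE, TGACGTCA), its core (TGACG, which also lies inside the full site), the TATA box (TATAAA) and the serum response element.
Fos, chr12:85473740-85473889, plus strand: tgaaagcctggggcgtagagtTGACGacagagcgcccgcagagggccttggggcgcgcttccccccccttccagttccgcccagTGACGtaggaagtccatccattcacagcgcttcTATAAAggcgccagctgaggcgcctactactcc
Jun, chr4:95052223-95052372, minus strand: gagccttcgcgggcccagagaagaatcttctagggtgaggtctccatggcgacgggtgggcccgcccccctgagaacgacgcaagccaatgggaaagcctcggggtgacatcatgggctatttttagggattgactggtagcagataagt
Junb, chr8:84978749-84978898, minus strand: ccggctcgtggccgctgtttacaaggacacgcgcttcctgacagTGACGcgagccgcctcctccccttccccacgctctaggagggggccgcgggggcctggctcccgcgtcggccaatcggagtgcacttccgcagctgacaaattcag
Dusp1, chr17:26508473-26508622, minus strand: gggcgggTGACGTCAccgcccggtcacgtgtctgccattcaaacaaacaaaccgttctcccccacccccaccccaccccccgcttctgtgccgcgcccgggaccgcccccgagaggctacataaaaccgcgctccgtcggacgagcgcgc
Zfp36, chr7:28379229-28379378, minus strand: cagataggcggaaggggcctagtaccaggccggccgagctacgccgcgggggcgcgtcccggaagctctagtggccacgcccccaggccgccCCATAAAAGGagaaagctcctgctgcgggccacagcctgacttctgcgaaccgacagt

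All motifs were searched on both strands in the 250 bases before the start, in 8 members (those above, Fosb, Jund and Atf3) and in 32851 promoters in all. For Fosb, Jund and Atf3 the RefSeq start also lies elsewhere than the GENCODE gene start. The Jund window ended at chr8:70697738, upstream of the GENCODE gene start at 70698949, so the bases next to that start were not searched. The full CRE was found in Dusp1, 143 to 136 bases upstream, and in 1.55% of all promoters. Its core was found in 5 of the 8 members (Fos, Fosb, Junb, Atf3 and Dusp1) and in 17.8% of all promoters. The serum response element was found in Zfp36, 58 to 49 bases upstream, and in 1.47% of all promoters. A TATA box stood 33 to 28 bases upstream of Fos and was held by 12.4% of all promoters. Jun and Jund held none of these in the bases searched, and none of the 8 members held the AP-1 site (TGANTCA, 6.75% of all promoters) or the Egr site (GCGTGGGCG, 0.536%) there. Bases farther upstream were not searched, so a motif not found here may lie there. A match is a description of the letters and does not show binding.

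After ONC, Egr1 and Atf3 were higher in both genotypes, Junb and Zfp36 were higher in Spp1 KO, and Fos was lower in WT. After IOP elevation, Atf3 was higher in both genotypes and Junb and Zfp36 were higher in Spp1 KO. No member passed the test between genotypes. A call here is an adjusted p under 0.05 with an absolute log2 fold change over 0.58 in limma, fitted to all 17102 genes and 23 libraries on the log2(normalized count + 1) scale. Whether a lower level reflects fewer cells of a type or less RNA per cell cannot be told apart in bulk libraries.

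In WT after IOP elevation, 1 of the 10 members was called against 1.56% of all genes tested, and the median log2 fold change of the members was 0.52 against -0.02 for all genes. In WT after ONC, 3 members were called, 2 higher and 1 lower, against 18.1% of all genes, with a median of 0.79 against -0.10. In Spp1 KO after IOP elevation, 3 members were called, all higher, against 7.88% of all genes, with a median of 0.76 against -0.12. In Spp1 KO after ONC, 4 members were called, all higher, against 23.6% of all genes, with a median of 0.94 against -0.12. The 2 IOP and ONC comparisons of a genotype share their naive libraries.

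Between genotypes, limma called 0 members in naive retinas (0.409% of all genes), 0 after IOP elevation (2.11%) and 0 after ONC (0.0877%). At an unadjusted p under 0.05 the numbers of members were 3, 1 and 0. DESeq2 on the recovered reads called 0, 1 and 0 members in the same comparisons, and edgeR called 0 in each. The test of whether the injury response differed between genotypes called 0 members for IOP elevation (8.75% of all genes) and 0 for ONC (0.0702%), with 1 and 3 members at an unadjusted p under 0.05. Both count tools also called 0 members in these tests.

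**Figure D1:**
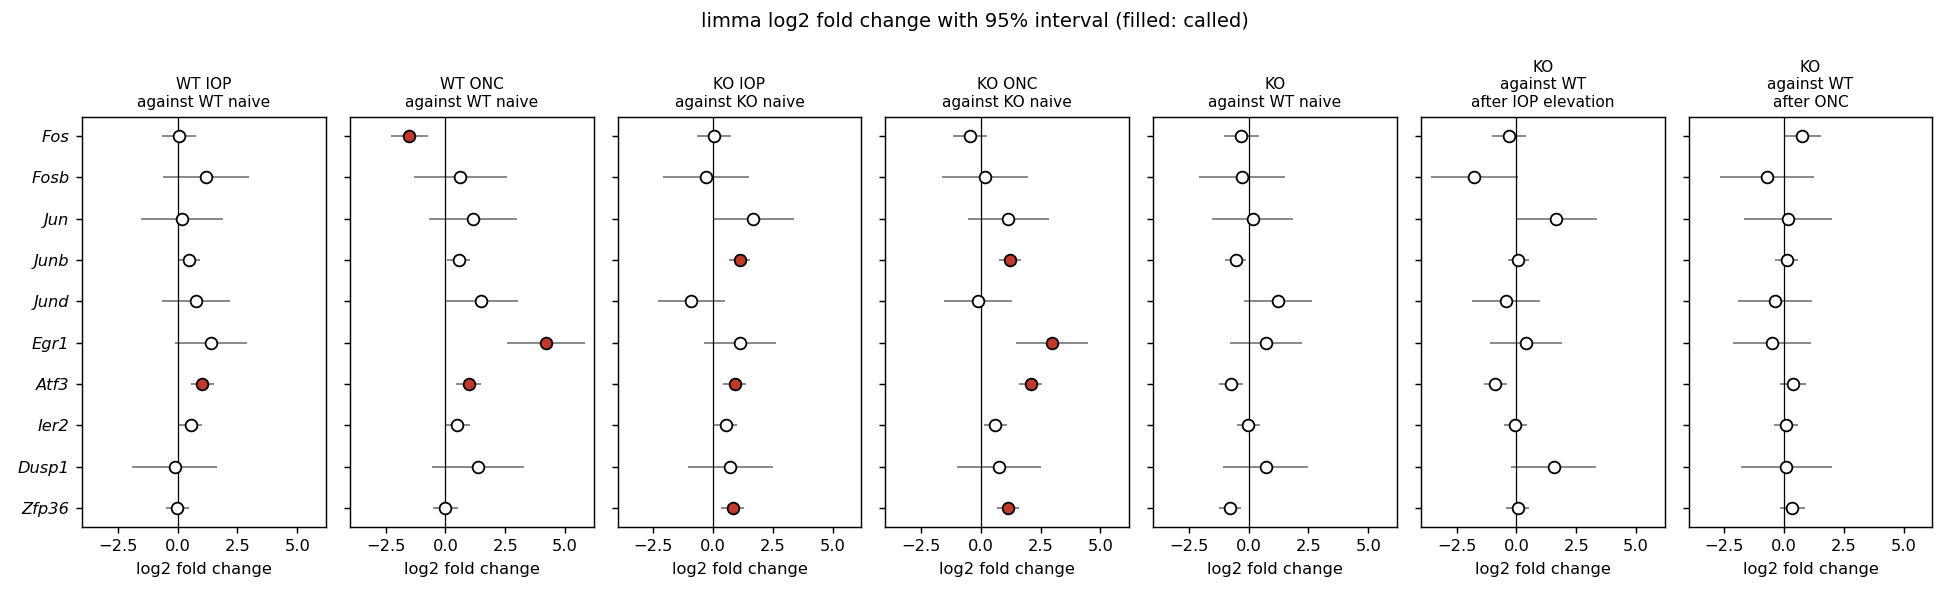
Log2 fold change of each immediate early gene (rows) in 7 comparisons (panels), from limma on log2(normalized count + 1) with 95% intervals; filled points are called. Egr1 lies farthest to the right after ONC, at 4.22 in WT and 2.98 in Spp1 KO, and no point is filled between genotypes.

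Egr1 (chr18:34859823-34864984, GRCm38), a zinc finger factor that rises with MAP kinase activity, had the largest change of the 10 members. Its normalized counts were 145, 85.0, 80.2 and 374 in naive WT and 2659, 1948 and 3398 in WT after ONC. Every library after ONC was above every naive library. The log2 fold change was 4.22 ± 0.78 (SE, adjusted p = 0.00073), and the ratio of the group means was 15.6. In Spp1 KO the counts were 903, 507, 116 and 51.0 in naive retinas and 2328, 2526, 1798 and 1024 after ONC. The groups did not overlap here either, but the lowest library after ONC was only just above the highest naive one. The log2 fold change was 2.98 ± 0.72 (adjusted p = 0.0047), or 4.87 times by the means. With the mean of the rod genes as a covariate the value stayed at 2.99 while its adjusted p rose to 0.123.

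After IOP elevation Egr1 was 814, 366, 230.1 and 275 in WT and 158, 406, 904 and 1019 in Spp1 KO. Both sets overlapped their naive libraries. The log2 differences, 1.41 (95% interval -0.09 to 2.91) and 1.10 (-0.40 to 2.61), did not pass the test. The rise after ONC was not shown to differ between genotypes, since the difference of 2 log2 changes was -1.24 (-3.45 to 0.97). The exact two-sided permutation test over single members gave p = 0.0286 for the ONC difference in Spp1 KO and 0.0571 in WT, the smallest values that 4 against 4 and 3 against 4 libraries allow. Over 70 such tests the lowest adjusted value was 0.2, so that this test alone could pass no member.

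**Figure D2:**
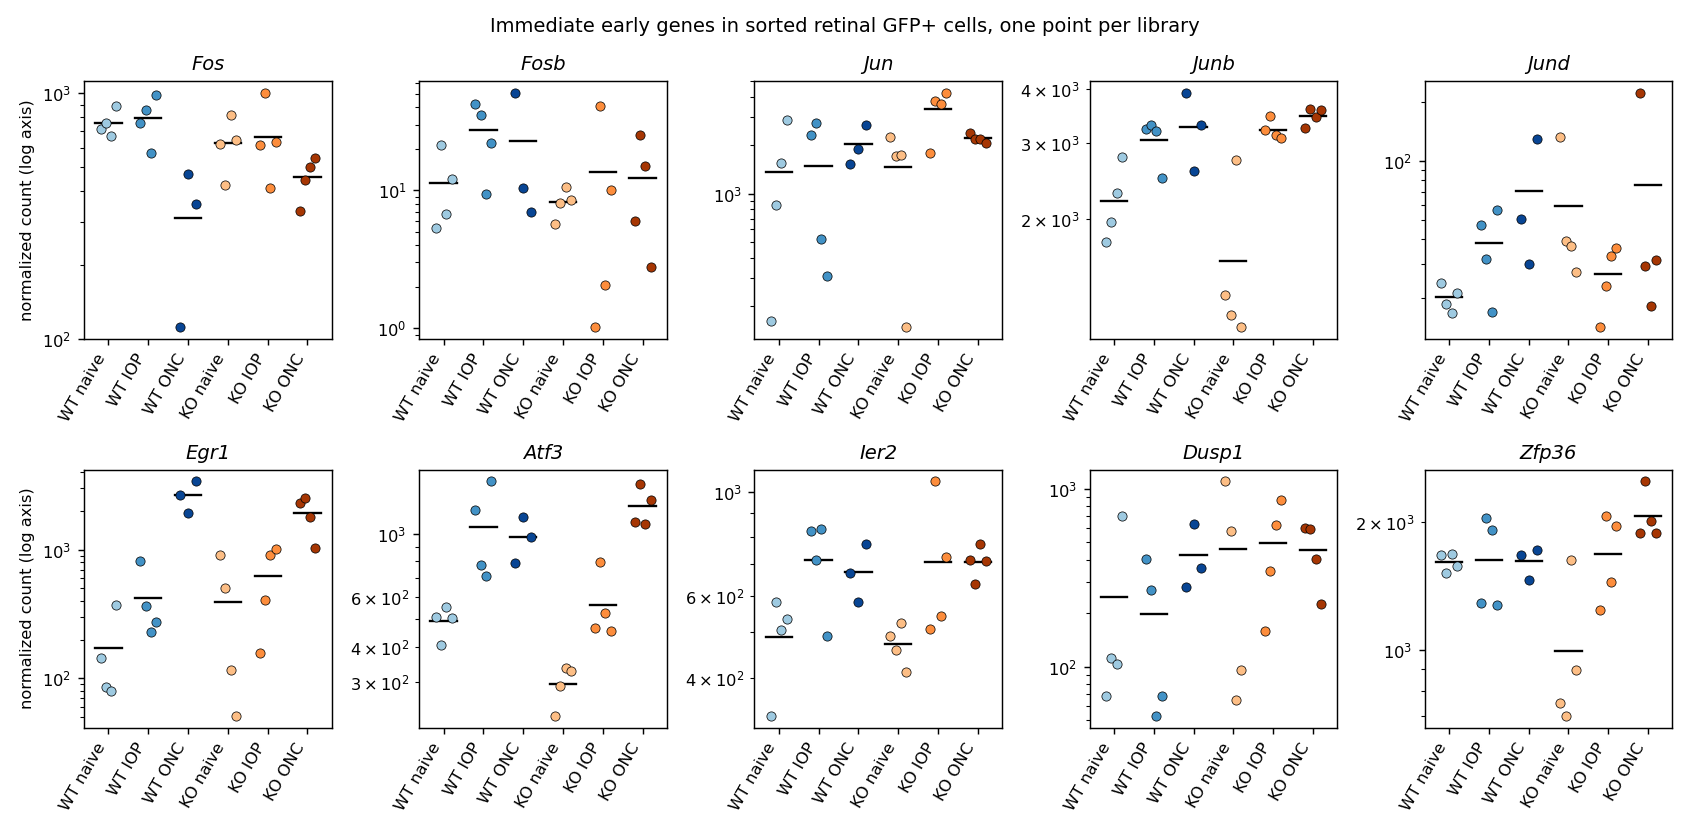
Normalized count on a log axis for the 10 immediate early genes; each point is a library, horizontal lines are group means, and axes differ between panels. Egr1 after ONC sits between 1024 and 3398 and Jun in naive WT spreads from 162 to 2852, while Junb after ONC stays between 2591 and 3916.

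Fos, the inducible partner of Jun in AP-1, was called lower in WT after ONC. In naive WT the normalized counts were 716, 757, 668 and 884, and after ONC they were 111, 467 and 353. The groups did not overlap, and the log2 fold change was -1.51 ± 0.37 (adjusted p = 0.0074). The call rests on 1 library: without WT ONC replicate 1 the log2 change was -0.89 with an adjusted p of 0.0818. That replicate is also the lowest of all 23 libraries for the heat shock gene Hspa1a, at 178.5. For the near-identical copy Hspa1b the lowest was WT ONC replicate 3, at 168.4, with replicate 1 at 208. Markers of border macrophages and monocytes moved with Fos, with 5 of 10 called lower and the summed list at 0.0416% to 0.130% against 0.148% to 0.320% in naive WT, and their part in the result was not tested. Of 10 retinal ganglion cell markers 7 were also called lower in WT after ONC, where 18.1% of all genes were called. The Muller glia and astrocyte list had 1 of 10 called lower. It was at 0.164% in WT ONC replicate 1, lower than in the other 10 WT libraries. With group means removed, r of Fos was 0.63 with the Muller glia list and 0.53 with the border macrophage list, and the part of these lists was not tested either. In Spp1 KO the counts were 624, 421, 816 and 645 in naive retinas and 332, 442, 502 and 547 after ONC, a difference of -0.45 (-1.16 to 0.27) that did not pass.

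After IOP elevation Fos was 759, 857, 573 and 981 in WT and 613, 1005, 411 and 632 in Spp1 KO. The log2 differences from naive were 0.05 in both, with intervals from -0.66 to 0.77 at the widest. Between genotypes after ONC, Fos differed by 0.76 (-0.01 to 1.53), which did not pass. Fosb (chr7:19302696-19310051), a Fos relative that also yields the long-lived ΔFosB, was scarce, at 1.02 to 51.0 over the 23 libraries. Its means by group ran from 8.23 ± 2.03 (SD, n = 4) in naive Spp1 KO to 27.2 ± 14.4 (n = 4) in WT after IOP elevation, with overlap in every comparison within a genotype. At this depth 3 reads correspond to a normalized count of 2.41 to 4.03, so the lowest Fosb values are within counting error of none.

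Jun, the c-Jun subunit that is phosphorylated by JNK, varied widely between libraries of one group. In naive WT the counts were 162, 856, 1558 and 2852, a 17.6-fold range. After IOP elevation they were 2318, 2760, 525 and 307 in WT, and after ONC 1531, 1896 and 2687. In Spp1 KO they were 2244, 1705, 1739 and 148 in naive retinas, 1784, 3757, 3614 and 4234 after IOP elevation and 2372, 2188, 2179 and 2075 after ONC. The 4 Spp1 KO libraries after ONC were thus nearly equal, while naive libraries of both genotypes and WT libraries after IOP elevation each held both low and high values. No comparison passed. The largest differences were 1.67 (-0.02 to 3.37) after IOP elevation in Spp1 KO and 1.66 (-0.04 to 3.35) for Spp1 KO against WT after IOP elevation.

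Junb, an AP-1 subunit with weaker transactivation than Jun, was the most abundant member per length, at a mean of 1538 normalized counts per kilobase of the longest transcript over all libraries, against 620.2 for Jun and 572 for Zfp36. In Spp1 KO it was 1338, 1202, 2740 and 1129 in naive retinas, 3207, 3467, 3124 and 3077 after IOP elevation and 3246, 3593, 3451 and 3572 after ONC. All injured libraries were above all naive ones, even above replicate 3, which was far from the rest. The log2 fold changes were 1.11 ± 0.21 after IOP elevation (adjusted p = 0.0091) and 1.21 ± 0.21 after ONC (adjusted p = 0.00039). Without naive Spp1 KO replicate 2 the first was 1.00 (adjusted p = 0.0502). In WT it was 1776, 1975, 2295 and 2792 in naive retinas, 3237, 3297, 3196 and 2491 after IOP elevation and 3916, 2591 and 3293 after ONC. The groups overlapped, and the log2 differences of 0.48 (0.04 to 0.92) and 0.56 (0.09 to 1.04) did not pass after adjustment. Without WT ONC replicate 2 the second was called, at 0.72 (adjusted p = 0.036).

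The microglia share moved with Junb in Spp1 KO. Of the 15 microglia markers, 7 were called higher and 1 lower after IOP elevation and 11 were called higher after ONC, and the summed list was 1.46% to 4.28% in naive libraries, 3.46% to 4.32% after IOP elevation and 3.39% to 4.04% after ONC. Of 12 rod genes, 1 and 10 were called lower. The mean of the microglia list without Cx3cr1 was used as a covariate, an alternative chosen after seeing the data. With it the log2 change of Junb was 0.51 (adjusted p = 0.53) after IOP elevation and 0.56 (adjusted p = 0.17) after ONC. With the rod list as covariate it was 0.66 (adjusted p = 0.20) and 0.60 (adjusted p = 0.12).

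Zfp36, which binds AU-rich elements in inflammatory messenger RNAs and marks them for decay, followed Junb. In Spp1 KO it was 750, 700.5, 1627 and 899 in naive retinas, 1240, 2062, 1447 and 1957 after IOP elevation and 1878, 2483, 2005 and 1875 after ONC. Replicate 3 was again the highest naive library, and it lay within the range after IOP elevation and below that after ONC. The log2 fold changes were 0.81 ± 0.23 after IOP elevation (adjusted p = 0.036) and 1.13 ± 0.23 after ONC (adjusted p = 0.0012). With the microglia covariate the values were 0.17 (adjusted p = 0.91) and 0.44 (adjusted p = 0.36). The IOP value also missed the threshold with edgeR on the recovered reads (adjusted p = 0.0625) and when any of 6 of the 8 libraries was left out (naive replicates 1, 2 and 4, IOP replicates 2, 3 and 4).

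In WT, Zfp36 hardly moved. It was 1669, 1515, 1679 and 1575 in naive retinas, 1288, 2039, 1913 and 1274 after IOP elevation and 1670, 1457 and 1717 after ONC. The log2 differences were -0.02 (-0.49 to 0.46) and 0.00 (-0.51 to 0.51). The naive Spp1 KO libraries were lower than naive WT by 0.78 on the log2 scale, -0.78 ± 0.23, which did not pass (adjusted p = 0.096). Without naive Spp1 KO replicate 3 the difference was -1.05 ± 0.20 (adjusted p = 0.0018), and that of Junb was -0.84 ± 0.16 (adjusted p = 0.0021), so both were then called. Over all genes 9.49% were called in that fit, and 17.97% and 3.70% in the interactions for IOP elevation and ONC. Without the same library the interactions of Zfp36 were 1.09 ± 0.27 for IOP elevation (adjusted p = 0.0077) and 1.39 ± 0.28 for ONC (adjusted p = 0.0084), and those of Junb were 0.92 ± 0.22 (adjusted p = 0.0061) and 0.94 ± 0.23 (adjusted p = 0.023).

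Naive Spp1 KO without that library held the microglia list at 1.46% to 2.01%, against 3.41% to 4.34% in naive WT, and the plot of both genes against that list shows the same 3 libraries apart.

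**Figure D3:**
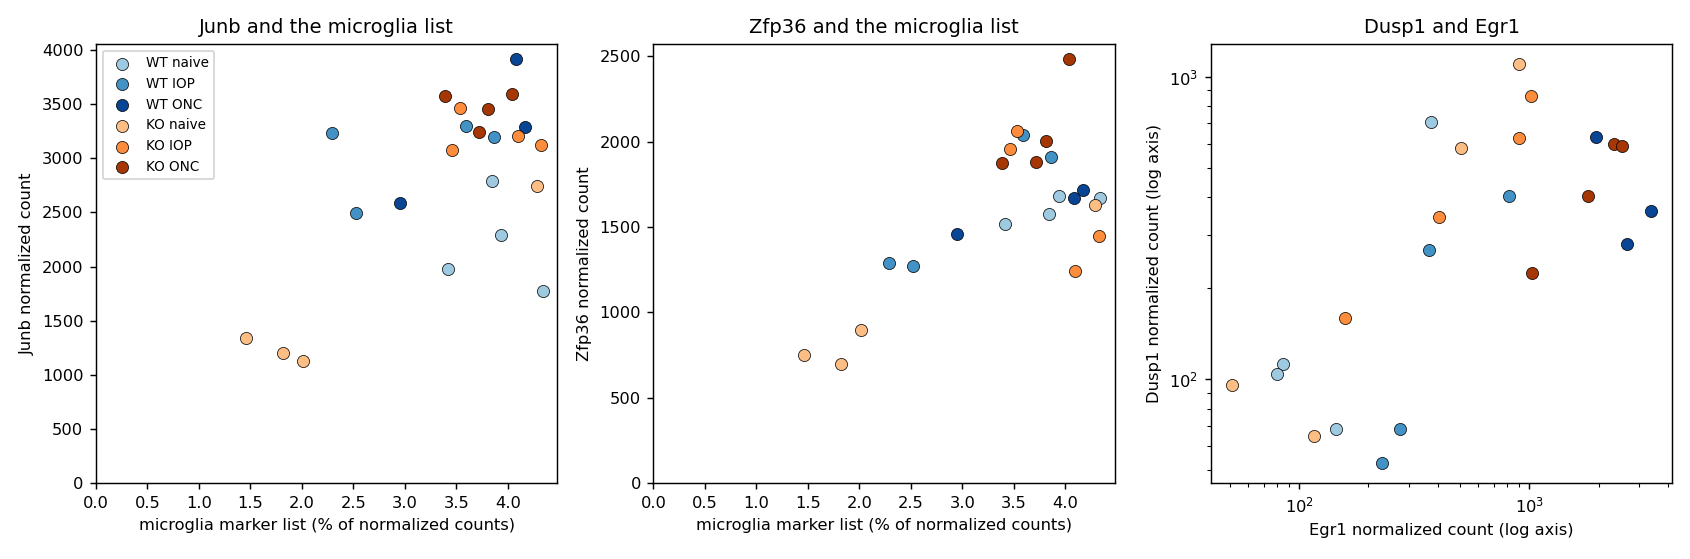
Left and middle, Junb and Zfp36 normalized counts against the summed microglia marker list (percent of normalized counts); right, Dusp1 against Egr1 on log axes; each point is a library, coloured by group. The 3 naive Spp1 KO libraries with the microglia list at 1.46% to 2.01% have the lowest Junb and Zfp36, and the fourth, at 4.28%, lies among the others.

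Atf3 (chr1:191170296-191218039), a stress-induced repressor and activator of the CREB family, was the only member called in all 4 injury comparisons. In WT it was 510, 404, 552 and 504 in naive retinas, 1211, 775, 712 and 1527 after IOP elevation and 789, 1145 and 977 after ONC. Each injured library was above each naive one. The log2 fold changes were 1.04 ± 0.24 (adjusted p = 0.028) and 0.97 ± 0.26 (adjusted p = 0.012). The first did not hold when WT naive replicate 1, 2, 3 or 4 or WT IOP replicate 1 or 4 was left out, with adjusted p from 0.0597 to 0.128. The lens list, 12 genes of which 11 were tested, moved with it. In WT after IOP elevation 9 were called higher, beside 1.56% of all genes called. The summed list was 0.128% to 0.948% there and 0.00909% to 0.0181% in naive WT, and its part in the result was not tested.

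In Spp1 KO, Atf3 was 229, 291, 337 and 328 in naive retinas, 464, 798, 528 and 455 after IOP elevation and 1104, 1501, 1078 and 1310 after ONC. None of the 3 groups overlapped. The log2 fold changes were 0.90 ± 0.24 after IOP elevation (adjusted p = 0.030) and 2.07 ± 0.24 after ONC (adjusted p = 6.7e-06). The ONC change, unlike those of Junb and Zfp36, was as large with the microglia covariate, at 2.21 (adjusted p = 0.00042), and with the rod covariate it was also called. When the 6 Spp1 KO libraries with Spp1 at 100 or more were left out, an alternative chosen after seeing the data, the IOP change was 0.64 (adjusted p = 0.32), and it was also not called with the rod covariate (1.04, adjusted p = 0.20), with the microglia covariate (1.02, adjusted p = 0.37) or when naive replicate 1, 2 or 4 or IOP replicate 2 or 3 was left out (adjusted p from 0.0638 to 0.0977).

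Between genotypes, Atf3 was lower in naive Spp1 KO without overlap (log2 difference -0.74 ± 0.24, adjusted p = 0.12) and lower in Spp1 KO after IOP elevation (-0.88 ± 0.24, adjusted p = 0.056). Neither passed with limma. DESeq2 on the recovered reads called the second, at -0.91 (adjusted p = 0.0097), and limma called it when WT IOP replicate 2 or 3 or Spp1 KO IOP replicate 2 was left out, with adjusted p from 0.0274 to 0.038. Lens genes moved with it, since 10 of the 11 tested were called lower in Spp1 KO than in WT after IOP elevation. Over all genes 2.11% were called there, and the part of the lens genes in the result was not tested. After ONC the difference was 0.37 (-0.17 to 0.90). The ONC response of Atf3 was larger in Spp1 KO by 1.10 ± 0.35 on the log2 scale, which did not pass (adjusted p = 0.20).

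Ier2 (chr8:84661331-84662852), a small nuclear protein of early growth responses, was higher by 0.49 to 0.59 on the log2 scale in all 4 injury comparisons and passed in none. In Spp1 KO it was 492, 458, 524 and 410.5 in naive retinas and 716, 636, 776 and 711 after ONC. These groups did not overlap, and the log2 difference of 0.59 ± 0.23 had an adjusted p of 0.066. DESeq2 called it (adjusted p = 0.043), as did limma after quantile normalization or on the compared groups alone. After IOP elevation it was 509, 1054, 542 and 727, which overlapped the naive libraries. In WT it was 331, 582, 506 and 533 in naive retinas, 824, 714, 833 and 492 after IOP elevation and 671, 580.0 and 774 after ONC.

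Dusp1, the phosphatase that ends p38 and JNK signalling, had a spread like that of Jun. It was 68.4, 112, 104 and 707 in naive WT, 402, 268, 52.8 and 68.2 after IOP elevation and 281, 632 and 359 after ONC. In Spp1 KO it was 1101, 581, 64.9 and 96.0 in naive retinas, 159, 345, 627 and 863 after IOP elevation and 601, 592, 404 and 225 after ONC. The naive range contained all injured libraries but 1, the IOP library at 52.8, over both genotypes. No difference passed, the largest being 1.55 (-0.21 to 3.32) for Spp1 KO against WT after IOP elevation.

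Jund (chr8:70698949-70700616), usually the constitutive Jun relative, was listed at only 14.3 to 224 normalized counts, or 28.4 per kilobase against 1538 for Junb. Its longest transcript is 67.1% G and C, above 99.9% of the tested genes, and the part of that in its low level was not tested. It was 24.0, 18.8, 16.9 and 21.4 in naive WT and 51.0, 29.9 and 129.8 after ONC, without overlap. The 95% interval of the log2 difference, -0.04 to 3.03, included 0, and it did not pass. In Spp1 KO single libraries stood out, naive replicate 1 at 133 and ONC replicate 1 at 224, with the other 6 between 18.2 and 39.4.

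The spread between libraries of one group divided the members. With group means removed, the SD on the log2 scale was 1.29 for Jun, 1.33 for Dusp1 and 1.13 for Egr1, above 99.4%, 97.0% and 98.2% of the 500 genes nearest to each in mean level. It was 0.31 for Junb, 0.33 for Zfp36 and 0.33 for Atf3, above 52.2%, 56.2% and 34.6% of such genes, and 0.31 for Ier2, where the median of such genes was 0.40. Fos lay between them at 0.51 (71.8%). Fosb and Jund were variable, at 1.22 and 0.95, but less so than most genes as scarce as they are (30.4% and 33.8%).

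The 3 variable members were correlated between libraries. With group means removed, Pearson's r over the 23 libraries was 0.86 between Egr1 and Dusp1, 0.68 between Jun and Dusp1 and 0.60 between Jun and Egr1. In naive Spp1 KO, replicate 1 had 903 of Egr1, 1101 of Dusp1 and 2244 of Jun, and replicate 4 had 51.0, 96.0 and 148. Replicate 3 differed from this, with 1739 of Jun beside 116 of Egr1 and 64.9 of Dusp1. Fos did not take part, with r of -0.19 with Egr1, -0.03 with Dusp1 and 0.07 with Jun, and was 624 and 645 in those 2 libraries. A second pair was Junb and Zfp36, at 0.66, and Fos and Atf3 reached 0.51. Jun and Egr1 were also correlated with other members, Jun with Ier2 (0.565) and Junb (0.501) and Egr1 with Jund (0.537). Fosb and Ier2 had an r of 0.504. With naive Spp1 KO replicate 3 dropped, Junb and Zfp36 had an r of 0.41. The group mean removed there still included that library, so its part in that value was not fully taken out.

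Of the 45 pairs, 9 had r over 0.5, and the median was 0.16. These values describe libraries that share a group's processing, and the points within a pair come from the same library with its depth and cell mixture. Against the summed microglia list, also with group means removed, r was 0.75 for Zfp36 and 0.69 for Junb, but -0.35 for Egr1, -0.54 for Dusp1 and -0.03 for Jun. Against the heat shock list it was -0.51 for Egr1, -0.44 for Dusp1, -0.25 for Jun and 0.43 for Fos.

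**Figure D4:**
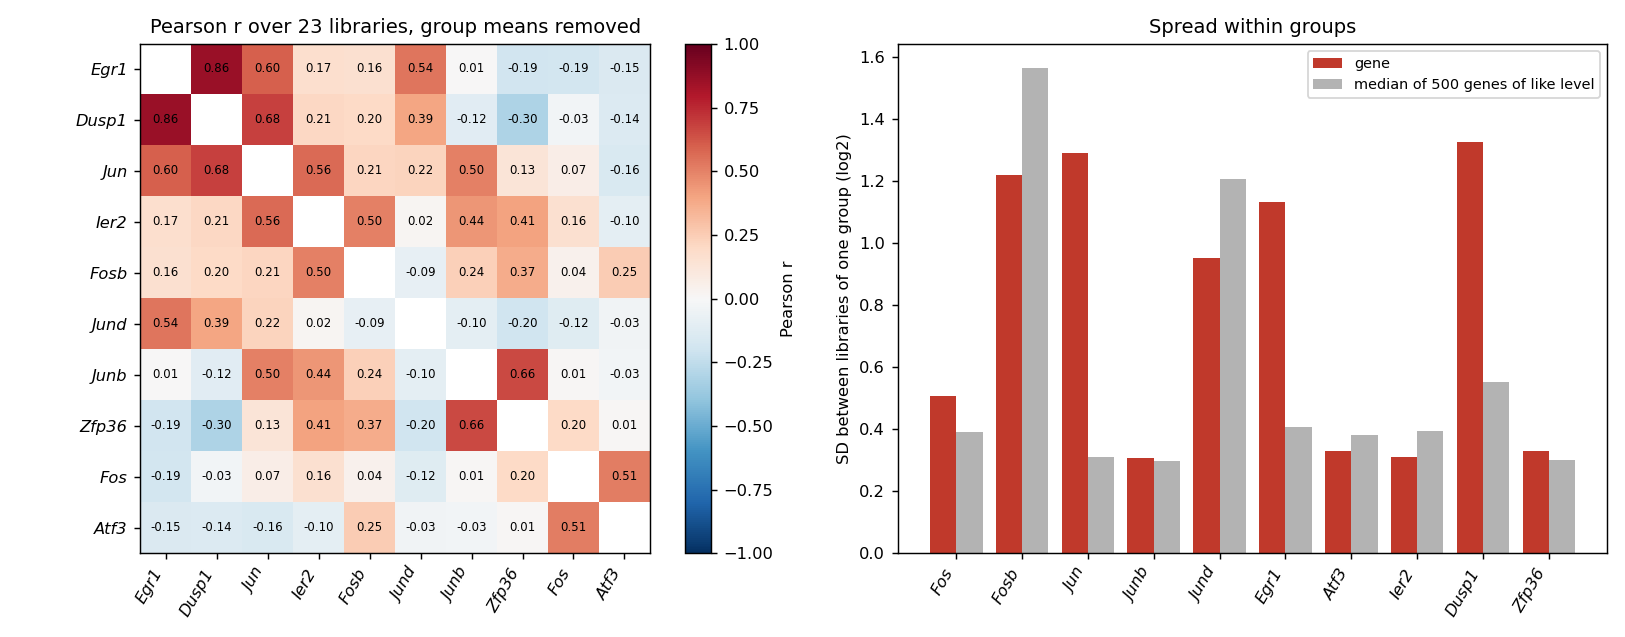
Left, Pearson's r between members over 23 libraries after removing group means; right, SD between libraries of one group on the log2 scale (red) beside the median SD of the 500 genes nearest in mean level (grey). Egr1, Dusp1 and Jun form a block with r of 0.60 to 0.86 and have SDs of 1.13 to 1.33 against grey bars of 0.31 to 0.55.

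The genes most like the members were ranked by Pearson's r with the mean z-score of the 10 members. Over the 23 libraries these were Socs3 (0.85), a feedback inhibitor of cytokine signalling, then Spast (0.83), Cgas (0.82), a sensor of cytosolic DNA, C4b (0.81), a complement component, and Lgals3 (0.81), a lectin of activated microglia. The members themselves ranged from 0.83 for Ier2 and 0.78 for Junb to -0.16 for Fos. Each member is part of the mean it was compared with, which raises its r, so these values are not on a par with those of other genes. With group means removed the 5 were Slc1a5 (0.87), Spast (0.84), Ptpn11 (0.84), Npepl1 (0.82) and Ccna2 (0.81). The points share the library, its depth and its cell mixture.

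Among 29 other immediate early genes, of which 28 were tested, 3 were called higher and 3 lower in WT after ONC, and 3 higher and 1 lower in Spp1 KO after ONC. Over all genes tested, 18.1% and 23.6% were called in these comparisons. The median log2 fold changes of the list were -0.13 and 0.14, beside -0.10 and -0.12 for all genes. Egr2, the closest relative of Egr1 on the list, rose from 87.0 ± 33.1 (SD, n = 4) to 401 ± 114 (n = 3) in WT (log2 fold change 2.24 ± 0.49, adjusted p = 0.0034). In Spp1 KO it rose from 45.1 ± 23.6 (n = 4) to 604 ± 137 (n = 4) after ONC (3.85 ± 0.46, adjusted p = 8.8e-06) and to 178 ± 93.8 (n = 4) after IOP elevation (1.98 ± 0.46, adjusted p = 0.019).

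Other members of that list moved in opposite directions in WT after ONC. Nr4a1, a nuclear receptor of the same early wave, fell from 207 ± 44.9 to 73.8 ± 74.6 (-1.91 ± 0.48, adjusted p = 0.0084), and Plk2, a polo-like kinase, fell from 1182 ± 104 to 298 ± 167 (-2.21 ± 0.38, adjusted p = 0.00033), while Ier5 rose from 111 ± 28.4 to 632 ± 570.5 (2.17 ± 0.59, adjusted p = 0.014). In Spp1 KO after ONC, Plk3 and Klf6 rose and Plk2 fell, by 2.12, 0.75 and -0.99 on the log2 scale. After IOP elevation 1 was called in WT, Gadd45b (98.3 ± 32.6 to 375.5 ± 212, 1.80 ± 0.41, adjusted p = 0.027), and 3 in Spp1 KO, Egr2, Myc and Klf6. Over all genes 1.56% and 7.88% were called in those comparisons. Gadd45b, a growth arrest gene, was also the 1 gene of the list called between genotypes, lower in Spp1 KO after IOP elevation at 102 ± 33.8 (-1.73 ± 0.41, adjusted p = 0.030). Between genotypes after IOP elevation 2.11% of all genes were called.

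Among other AP-1 relatives, 2 were called higher in Spp1 KO after IOP elevation and 0 in WT after IOP elevation, beside 7.88% and 1.56% of all genes called. Batf3, a partner of Jun in dendritic cells, rose in Spp1 KO from 97.4 ± 38.8 (SD, n = 4) to 261 ± 14.2 (n = 4) after ONC (adjusted p = 0.0079) and to 243 ± 44.6 (n = 4) after IOP elevation (adjusted p = 0.037). Of 9 other MAP kinase phosphatases none was called higher in any of the 4 injury comparisons, and Dusp10 was called lower after ONC in WT (-1.31 ± 0.33, adjusted p = 0.0086) and in Spp1 KO (-0.94 ± 0.31, adjusted p = 0.028), the latter together with Dusp8. After ONC 18.1% of all genes were called in WT and 23.6% in Spp1 KO.

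Of 8 proteins that bind AU-rich elements, Zfp36l1, the sister of Zfp36, rose in Spp1 KO after IOP elevation (1.04 ± 0.21, adjusted p = 0.013) and ONC (1.10 ± 0.21, adjusted p = 0.00088), and Elavl1 rose and Tia1 fell in WT after ONC. Of 27 upstream kinases and factors, 4 were called higher in WT after ONC, and 7 higher and 1 lower in Spp1 KO after ONC, beside 18.1% and 23.6% of all genes called. Elk3, an ETS partner of serum response factor, and Mapkapk2, the p38 target that inactivates Zfp36 protein, rose in both: Elk3 by 0.80 ± 0.24 (adjusted p = 0.024) and 1.61 ± 0.22 (adjusted p = 3.9e-05), Mapkapk2 by 1.22 ± 0.29 (adjusted p = 0.0056) and 1.26 ± 0.27 (adjusted p = 0.0018).

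Genes known from dissociation stress were read beside the members. Of 23 genes known to rise in microglia during isolation, 9 were called higher in WT after ONC, 21 in Spp1 KO after ONC, 14 in Spp1 KO after IOP elevation and 0 in WT after IOP elevation, and none was called lower in those comparisons. Over all genes 18.1%, 23.6%, 7.88% and 1.56% were called in that order. The median log2 fold changes of the 23 genes, in the same order, were 0.89, 1.76, 1.01 and -0.09. Microglia markers moved with them in Spp1 KO, as given beside Junb. Between genotypes, 2 of the 23 genes were called lower in naive Spp1 KO, and 0 were called after IOP elevation or after ONC. Their median log2 differences were -0.43, 0.55 and -0.008, and 0.409%, 2.11% and 0.0877% of all genes were called. The injury response was called larger in Spp1 KO for 5 of the 23 genes after IOP elevation and 0 after ONC. Over all genes 8.75% and 0.0702% were called in these tests. Ccl4, a chemokine of that list, rose from 252 ± 57.2 to 3597 ± 1003 in WT after ONC (3.82 ± 0.44, adjusted p = 6.2e-06) and from 205 ± 120.5 to 2520 ± 832 in Spp1 KO (3.72 ± 0.41, adjusted p = 3.9e-06). Many of these genes also answer injury itself. Of 14 heat shock genes, 1 was called higher and 3 lower in WT after ONC, 2 higher and 2 lower in Spp1 KO after ONC, and 0 after IOP elevation in either genotype. The shares of all genes called in these comparisons are those given above for the 23 genes. Hspa1a and Hspa1b, near-identical copies whose reads may be split, fell in WT after ONC (-1.36 ± 0.30, adjusted p = 0.0037, and -1.52 ± 0.28, adjusted p = 0.00059), in the direction of Fos.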

How the data were processed

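GFP-positive retinal cells were sorted and sequenced by the authors as 150-base read pairs. The deposited values are a signal table of gene counts that the authors divided by DESeq2 size factors, on GRCm38; the labels name STAR and DESeq2, and the methods name salmon. Values of all 23 libraries were whole multiples of the value of 1 read (100% within 0.01), so reads were recovered and 3 reads equal a normalized count of 2.41 to 4.03. That floor covers counting error only, and intervals of fold changes come from the spread between libraries.

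The design assumed normalized values, so limma 3.58.1 (R 4.3.3) was fitted to log2(normalized count + 1) of 17102 genes in 6 groups; fold changes are on that scale and understate changes of low genes. P-values were adjusted by Benjamini-Hochberg over all genes, and calls required an adjusted p under 0.05 and an absolute log2 change over 0.58. Single members were also compared by two-sided exact permutation tests. edgeR 4.0.16 and DESeq2 1.42.0 were run on the recovered reads as alternatives. Gene symbols were assigned by Ensembl gene ID (35436 of 35825 IDs matched), and list symbols not found that way were looked up in RefSeq. Gene lengths came from GENCODE transcripts. Python 3.11.15 was used for descriptions.

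All 10 members are named, and genes of 7 other lists are named only where called, from the 4 with the largest change per list and comparison; the 5 genes most like the members, Spp1, Cx3cr1 and cell type markers complete the names. Some results of the AP-1 relatives are not reported here. The members and lists were chosen with earlier results of these data known. Libraries sharing a replicate number in different groups were not paired, since the labels tie the number to no animal or batch. Alternatives changed the pseudocount, filter, scaling, libraries, covariates and tool. The removal of GC and length trends, the restriction of Spp1 KO libraries by Spp1 and the microglia covariate were added after seeing the data.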

Additional observations from a re-analysis of the deposited data

Results flagged for a closer look

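In 5 of the 50 sets of 4 libraries, 1 library lay far from the other 3 on the scale of normalized counts. A chance rate of about 1 in 20 holds only for normally distributed values in independent sets. Normalized counts are skewed and the sets share libraries, so no excess over chance is read from the 5. Whether they stand apart on the log2 scale was not tested. Junb was 2491 in WT IOP replicate 4, below 3196 to 3297 in the other 3, and 2740 in naive Spp1 KO replicate 3, above 1129 to 1338. Jund was 133.1 in naive Spp1 KO replicate 1, against 27.2 to 39.4, and 223.9 in Spp1 KO ONC replicate 1, against 18.2 to 31.5. Dusp1 was 706.7 in naive WT replicate 4, against 68.4 to 112. Naive WT replicate 4 also held the highest Egr1 and Jun of its group, and naive Spp1 KO replicate 3 the highest Zfp36 and the highest microglia list.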

How the results depend on the processing

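The members called in WT after IOP elevation (1) became 2 with the rod or microglia covariate and 0 with the compared groups alone or with Spp1 KO libraries under 100 for Spp1, and ranged from 0 to 1 when single libraries were left out. In Spp1 KO after IOP elevation (3) they became 0 under all 4 of these settings and ranged from 0 to 3. In Spp1 KO after ONC (4) they became 1 with the rod covariate, 1 with the Spp1 restriction and 2 with the microglia covariate, and remained 4 with any single library left out. In WT after ONC (3) the count was 2 to 3 over all settings and 2 to 4 over single libraries left out. Between genotypes after IOP elevation (0) it was 1 with upper-quartile rescaling, 1 with DESeq2 and 0 to 1 with libraries left out. In naive retinas and in both interactions (0 each) it was 0 to 2, the 2 being reached without naive Spp1 KO replicate 3. The Spp1 restriction left 1 Spp1 KO library after ONC, which is assumed to vary like the other groups, so its values there are no check of that group. The Zfp36 interaction for IOP elevation, 0.82, turned to -0.037 with the microglia covariate. The cause of these changes was not tested. Of 24 member fold changes with an unadjusted p under 0.05, 336 values under other settings held 303 on the same side of the threshold, 25 that lost it, 7 that gained it and 1 reversal. The 303 include fold changes that were not called and stayed so, while the 25 fell on called ones only. In Spp1 KO after IOP elevation Junb, Atf3 and Zfp36 lost the call under 4, 4 and 6 of 14 settings.

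A replicate block left the members called at 1 and 3 in WT and 3 and 4 in Spp1 KO after IOP elevation and ONC, and at 0 elsewhere. Same-numbered libraries did not deviate together (26 pairs, r from -0.253 to 0.153).

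The number of all genes called also moved: from 1347 in Spp1 KO after IOP elevation to 559 with edgeR, 877 without a filter, 16 with the Spp1 restriction, 7 and 5 with the rod and microglia covariates and 5 with the compared groups alone; from 4043 in Spp1 KO after ONC to 489, 490 and 190 with the covariates and the restriction; from 267 in WT after IOP elevation to 578 with DESeq2 and 125 with the restriction; and from 70 between naive groups to 479 with DESeq2 and 26 with edgeR. Upper-quartile rescaling moved the median of all genes in WT after ONC from -0.10 to -0.21, and quantile normalization moved it in Spp1 KO after IOP elevation from -0.12 to -0.01.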
